A study of Danio rerio with 18 samples.

Results

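The MHC class I genes described here are 9 rows of a table of 31624 zebrafish genes: mhc1uba (ENSDARG00000075963) and mhc1uka (ENSDARG00000092731) of the U lineage, mhc1zaa (ENSDARG00000092162), mhc1zja (ENSDARG00000074765), mhc1zea (ENSDARG00000001470), mhc1zda (ENSDARG00000086877) and mhc1zfa (ENSDARG00000088022) of the Z lineage, mhc1laa (ENSDARG00000016056) of the L lineage, and mhc1haa (ENSDARG00000092225). They were chosen by symbol and identifier, with earlier results of these data known, and each was found once in the table. A further 11 rows carry a symbol that begins with mhc1. The reads come from 18 libraries, made from the eyes and from an anterior and a posterior brain part of wild-type fish and of opn4 dko fish (opn4.1-/- and opn4xb-/-, frameshift deletions made with TALENs in 2 melanopsin genes). Each of the 6 groups has 3 biological replicates, and each replicate is a pool of tissue from 3 fish of the Tubingen strain, about 1.5 years of age, that were kept under cycles of blue light and darkness and sampled in the light phase. The anterior brain holds the telencephalon and the pineal. The posterior brain holds the midbrain, the hindbrain, the hypothalamus and the pretectum, and the remaining forebrain is divided between both parts. The sources used here do not state whether the wild-type fish were siblings of the mutants, so that the opn4 genotype and the family of the fish cannot be told apart.

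MHC class I molecules carry short peptides from inside the cell to its surface, where cytotoxic T cells inspect them. The heavy chain is encoded by the class I genes, and it is folded with the light chain beta-2 microglobulin after peptides have been cut by the proteasome, moved into the endoplasmic reticulum by the TAP transporter and loaded with the help of tapasin. In teleost fish the U lineage holds the classical class I genes, which lie among genes of peptide processing in the core MHC region. Haplotypes of that region in zebrafish differ in the U genes they carry. The Z and L lineages are older branches, and Z molecules keep the residues that anchor a peptide, whereas L genes are regarded as nonclassical. Healthy neurons are known for low class I levels compared with tissues rich in leukocytes.

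Total counts ranged from 2186877 to 6946549 per library, and 14577 to 20037 genes had a count. The third wild-type eye library was the lowest in both. The lens marker cryaa was at 0 in every brain library, and the other lens marker, crygm2d1, had 3 reads in all 18 libraries. Telencephalon markers summed to 516 to 647 CPM (counts scaled to library size) in the anterior brain against 4.84 to 14.8 CPM in the posterior brain. Of the midbrain and hindbrain markers, hoxb3a had at most 0.437 CPM in the anterior against 9.71 to 33.4 CPM in the posterior brain. pvalb7 was present in both, at 242 to 310 against 372 to 525 CPM. The mutations are frameshift deletions, which need not lower the count of a gene, so that the counts are no check of the genotype labels. opn4.1 had 350 to 599 CPM in wild-type eyes and 340 to 514 CPM in opn4 dko eyes. Its reads were 0, 31 and 7 in wild-type against 19, 16 and 19 in opn4 dko anterior brains. Posterior brains had 5, 10 and 5 against 1, 0 and 0 reads. opn4xb had 15.4 to 27.9 CPM in wild-type eyes against 8.2 to 9.48 CPM, so that its groups did not overlap there. Groups did not overlap for 12.5% of the genes tested in the eye, in either direction. In the deposited commands, replicate 1 of both brain parts carried another demultiplexing number than replicates 2 and 3, in the same way for both genotypes. All eye libraries shared a number. It was read here as the sequencing lane, which the sample labels do not name.

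mhc1uba was the one class I gene with a higher level in opn4 dko that passed the test in all 3 tissues. Wild-type eyes gave 23, 30 and 21 reads, opn4 dko eyes 5567, 5541 and 3814. Wild-type anterior brains gave 8, 15 and 5 reads, those of opn4 dko 3532, 1548 and 1900. Every opn4 dko library thus held more than 1000 reads and no wild-type library of any tissue more than 30. Posterior brains had 8, 15 and 12 wild-type reads against 2984, 2154 and 2341 for opn4 dko.

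**Figure D1:**
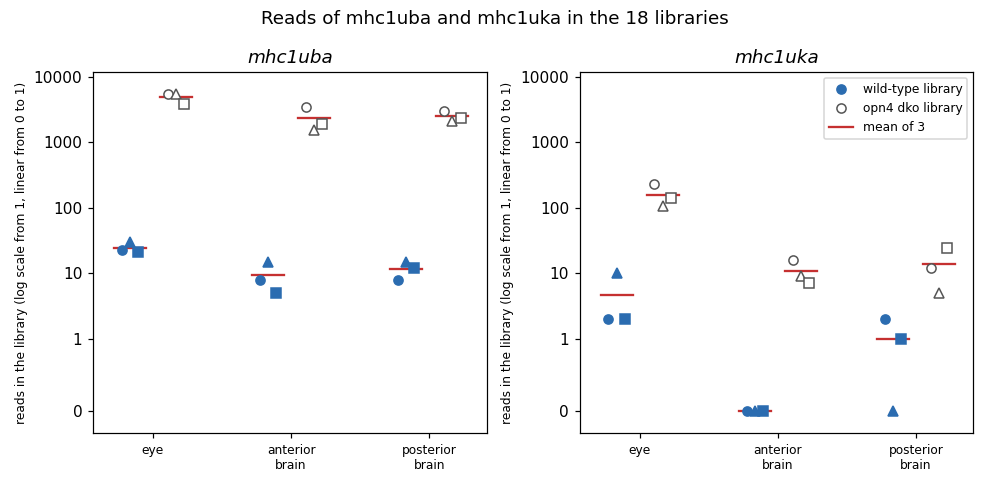
Reads of mhc1uba (left) and mhc1uka (right) in each of the 18 libraries, by tissue, with filled blue markers for wild-type, open grey markers for opn4 dko, a marker shape for each replicate number and a red line for the mean of 3. The vertical axis is logarithmic from 1 read upwards and linear between 0 and 1. No wild-type library of mhc1uba lies above 30 reads and no opn4 dko library below 1548, and mhc1uka is separated between genotypes in each tissue at lower counts.

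Scaled to library size, mhc1uba had 9.33 ± 1.64 CPM (SD, n = 3) in wild-type eyes and 1190.0 ± 168 CPM in opn4 dko eyes, a ratio of means of 128. The ratio was 240.0 for the anterior brain, from 1.73 ± 0.602 to 415 ± 76.5 CPM. Posterior brains went from 2.67 ± 0.66 to 534 ± 45.5 CPM. The CPM values use total counts corrected by TMM, a scaling that assumes most genes to be alike between libraries. In bulk tissue, more RNA per cell and more cells that express a gene cannot be told apart. Nor can either be told apart from a difference in the U genes carried by the fish, as family is not separated from genotype.

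The edgeR quasi-likelihood test, run on all genes with enough reads and adjusted over all of them (FDR below 0.05), called mhc1uba in each tissue. Its log2 fold change was 6.97 (SE 0.25, FDR 3.19e-07) in the eye. Anterior brains gave 7.83 (SE 0.23, FDR 2.26e-14), posterior brains 7.64 (SE 0.21, FDR 1.89e-15). In both brain parts mhc1uba was kept for the test only with its opn4 dko libraries, as wild-type brain libraries held at most 15 reads. mhc1uba was the only class I member called in any tissue, 1 of 9 tested in the eye and 1 of 6 in each brain part. Over all genes tested, the test called 0.0254% for the eye, 1.05% for the anterior and 0.357% for the posterior brain, in either direction. mhc1uba had the smallest p-value of all genes in each tissue, whereas by the absolute log2 fold change it ranked 4 in eye and posterior brain and 14 in anterior brain. With the number read as the lane as a term in the model, the log2 fold change was 7.81 for the anterior and 7.65 for the posterior brain.

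mhc1uka, the other U gene among the 9, had far fewer reads and was also separated between the genotypes. Wild-type eyes held 2, 10 and 2 reads, and 229, 107 and 141 were counted for opn4 dko. These are 1.68 ± 1.51 CPM against 37.3 ± 9.79 CPM (SD, n = 3). The log2 fold change was 4.39 (SE 0.62), with an FDR of 0.0600 that missed the threshold. The call depends on the test and on the wild-type libraries. The edgeR exact test gave an FDR of 2.58e-07 and DESeq2 one of 8.14e-08, whereas leaving out the third wild-type eye library gave 0.0157 and leaving out any other library between 0.0663 and 0.697. Of all genes tested in the eye, the exact test called 0.108% and DESeq2 0.171%. The gene was kept for these tests only with the opn4 dko eyes, the group where it was high, so that the filtered calls add no support. Without any filter on low counts its FDR in the eye was 0.000163, with 7 genes called higher and 9 lower of 22140.

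Anterior brains of the 3 wild-type pools held 0 mhc1uka reads, those of opn4 dko 16, 9 and 7. Against a floor of 3 counts in each wild-type library the level was at least 3.2-fold higher in opn4 dko. Posterior brains held 2, 0 and 1 wild-type reads against 12, 5 and 24 for opn4 dko, a ratio of 12.8 with an exact 95% interval of 4.1 to 64.8 that covers counting error only. The groups did not overlap in either brain part, as for 14.5% (anterior) and 15.7% (posterior) of the genes tested there, in either direction. The gene had too few reads to be kept for the test in the brain. A fit of all 18 libraries keeps it through its reads in the opn4 dko eyes, the group where it was highest. In that fit the FDR was 0.0244 (anterior brain), 0.269 (posterior brain) and 0.0209 (eye). The fit called 0.623% of all genes for the anterior brain and 0.183% for the eye. With the edgeR code the authors deposited, which called 1.57% of the genes tested for the anterior brain, the FDR of mhc1uka there was 0.0417. That code keeps the gene through the opn4 dko anterior brains, as wild-type had 0 reads. Both anterior brain calls thus rest on filters passed through groups where the gene was high, and they add no support. Without any filter on low counts, the FDR of mhc1uka in the anterior brain was 0.181 (log2 scale SE 2.26).

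The reads of mhc1uka and mhc1uba did not keep a fixed ratio across tissues. In opn4 dko there were 3.25 ± 1.16 mhc1uka reads per 100 mhc1uba reads in the eye (SD, n = 3). The value was 0.468 ± 0.107 for anterior brains and 0.553 ± 0.418 for posterior brains. The lowest eye library, at 1.93, lay above the highest brain library, at 1.03. In wild-type eyes the same value ranged from 8.7 to 33.3, from 2 to 10 mhc1uka reads in a library. Reads were counted at a mapping quality of at least 20, which removes reads that align equally well to several copies, and the part of such reads in these ratios was not tested.

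mhc1uba held a minor share of all reads on the 9 class I genes in wild-type and the major share in opn4 dko. Its share was 6.83% ± 1.08 (SD, n = 3) in wild-type eyes and 87.4% ± 2.68 in opn4 dko eyes. Anterior brains went from 1.25% ± 0.358 to 75.9% ± 2.4, posterior brains from 2.2% ± 0.427 to 79.1% ± 1.41. mhc1zda held the largest share of reads in wild-type, with 36.8% ± 4.32 for eyes, 75.3% ± 6.59 for anterior brains and 73.9% ± 6.1 for posterior brains. These are shares of reads and not of molecules, since longer genes give more reads.

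The summed level of the 9 genes was 137 ± 17.6 CPM in wild-type and 1350.0 ± 149 CPM in opn4 dko eyes. Anterior brains had 137 ± 13 against 546 ± 87.6 CPM, posterior brains 120.0 ± 6.45 against 676 ± 59.9 CPM. Without mhc1uba, the other 8 genes summed to 128 ± 16.8 against 169 ± 19.5 CPM (eye), 136 ± 12.5 against 130.0 ± 16.2 CPM (anterior brain) and 118 ± 5.79 against 142 ± 17.9 CPM (posterior brain). The eye sum includes the U gene mhc1uka, at 1.68 against 37.3 CPM. The range of the 8 genes overlapped between genotypes in the eye, where it was 118 to 147 CPM in wild-type and 146 to 182 CPM in opn4 dko, and in the anterior brain. Posterior brains did not overlap, with 112 to 124 CPM in wild-type and 128 to 162 CPM in opn4 dko.

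**Figure D2:**
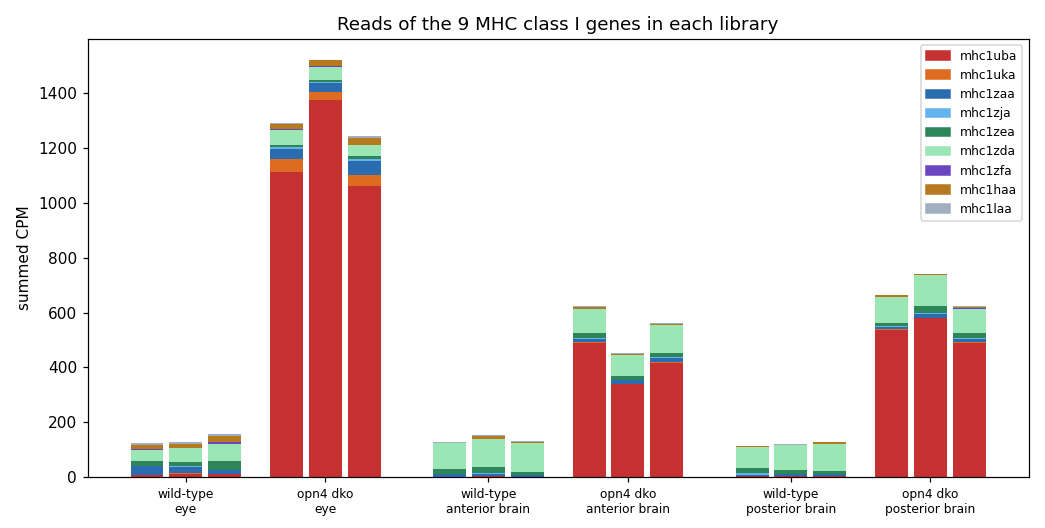
Summed CPM of the 9 class I genes in each library, stacked by gene, with 3 bars for each tissue and genotype. The wild-type bars stand between 114 and 157 CPM, the opn4 dko bars between 451 and 1520 CPM, and mhc1uba (red) forms most of each opn4 dko bar.

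mhc1zaa, a Z lineage gene, was the only other member whose libraries did not overlap between genotypes in all 3 tissues. Its eye libraries had 97, 65 and 29 wild-type reads against 177, 139 and 182 for opn4 dko. The anterior brain had 35, 63 and 22 against 80, 63 and 74 reads, and the posterior brain 23, 42 and 24 against 47, 55 and 47 reads. In CPM the eye level was 22.6 ± 8.58 in wild-type and 40.3 ± 9.11 in opn4 dko. The log2 fold changes of eye, anterior and posterior brain were 0.80 (SE 0.37, FDR 0.993), 0.86 (SE 0.39, FDR 0.502) and 0.72 (SE 0.45, FDR 0.653), and none passed the test. Groups that do not overlap are common with 3 against 3 libraries: in either direction, such groups were found for 12.5% of the genes tested (eye), 14.5% (anterior brain) and 15.7% (posterior brain).

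mhc1zda gave the most reads of the Z genes and differed little between genotypes. Counts were 125, 152 and 121 in wild-type eyes and 264, 183 and 143 in opn4 dko eyes, from libraries that were deeper in opn4 dko. In CPM these are 50.6 ± 9.52 and 46.1 ± 6.51. The anterior brain had 103 ± 5.5 against 88.4 ± 11.4 CPM and the posterior brain 89.2 ± 11.7 against 100.0 ± 12.8 CPM. The log2 fold changes of −0.16 (SE 0.27), −0.23 (SE 0.15) and 0.16 (SE 0.17) in eye, anterior and posterior brain did not pass the test (FDR 0.993, 0.740 and 0.841). The standard errors of mhc1zda were the smallest of the members in both brain parts.

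mhc1zea had its lower libraries in the opn4 dko eye. There were 55, 40 and 70 reads in wild-type eyes and 52, 40 and 39 in opn4 dko eyes, which gives 21.9 ± 10.9 against 10.4 ± 0.469 CPM. The wild-type range of 13.7 to 34.3 CPM lay above the opn4 dko range of 9.94 to 10.9 CPM. The third wild-type eye library, with the lowest total, was the highest. The log2 fold change was −1.11 (SE 0.50, unadjusted p 0.0491, FDR 0.993), and it was between −1.36 and −0.60 with a library left out. For the anterior (81, 140 and 48 against 136, 57 and 67 reads) and the posterior brain (71, 87 and 37 against 62, 95 and 81 reads) the libraries overlapped, with log2 fold changes of −0.13 (SE 0.32) and 0.29 (SE 0.37).

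mhc1haa had 48, 46 and 41 reads in wild-type eyes and 105, 87 and 98 in opn4 dko eyes. Its CPM did not overlap there, at 17.1 ± 2.59 against 23.3 ± 3.48, as for 12.5% of the genes tested in the eye in either direction. The log2 fold change was 0.42 (SE 0.39, FDR 0.993). In the brain it varied widely within a genotype, with 5, 59 and 7 reads for wild-type against 55, 7 and 27 for opn4 dko anterior brains. The posterior brain gave 12, 7 and 15 against 31, 10 and 31 reads. The log2 fold changes were 0.34 (SE 0.77) and 0.82 (SE 0.76), neither of which passed the test.

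The remaining Z genes and mhc1laa were close to the limit of detection. mhc1zja had 8, 11 and 0 reads in wild-type against 35, 11 and 21 in opn4 dko eyes, with a log2 fold change of 1.23 (SE 1.19, FDR 0.993). It had 0, 11 and 5 against 15, 8 and 18 reads in the anterior brain, where it was not tested, and 19, 4 and 5 against 31, 11 and 24 reads in the posterior brain (log2 fold change 0.98, SE 0.84, FDR 0.789). In CPM, the opn4 dko libraries of mhc1zja lay above those of wild-type in the anterior brain and overlapped with them elsewhere.

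mhc1laa had 22, 16 and 16 reads in wild-type eyes against 15, 6 and 28 for opn4 dko, and its anterior brain counts were 15, 22 and 20 against 21, 17 and 13. Its log2 fold changes were −0.76 (SE 0.92) and −0.23 (SE 0.67), and its libraries overlapped in each tissue. The posterior brain, with 9, 8 and 2 against 3, 0 and 4 reads, was not tested. mhc1zfa was found mainly in the eye, with 9, 4 and 21 wild-type reads against 10, 15 and 0 for opn4 dko (log2 fold change −1.34, SE 1.37). No wild-type anterior brain had a read of it, and those of opn4 dko had 1, 4 and 0. Posterior brains had 3, 0 and 2 against 0, 1 and 1 reads. A level of 3 counts or fewer in a library is not distinguished here from 0.

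**Figure D3:**
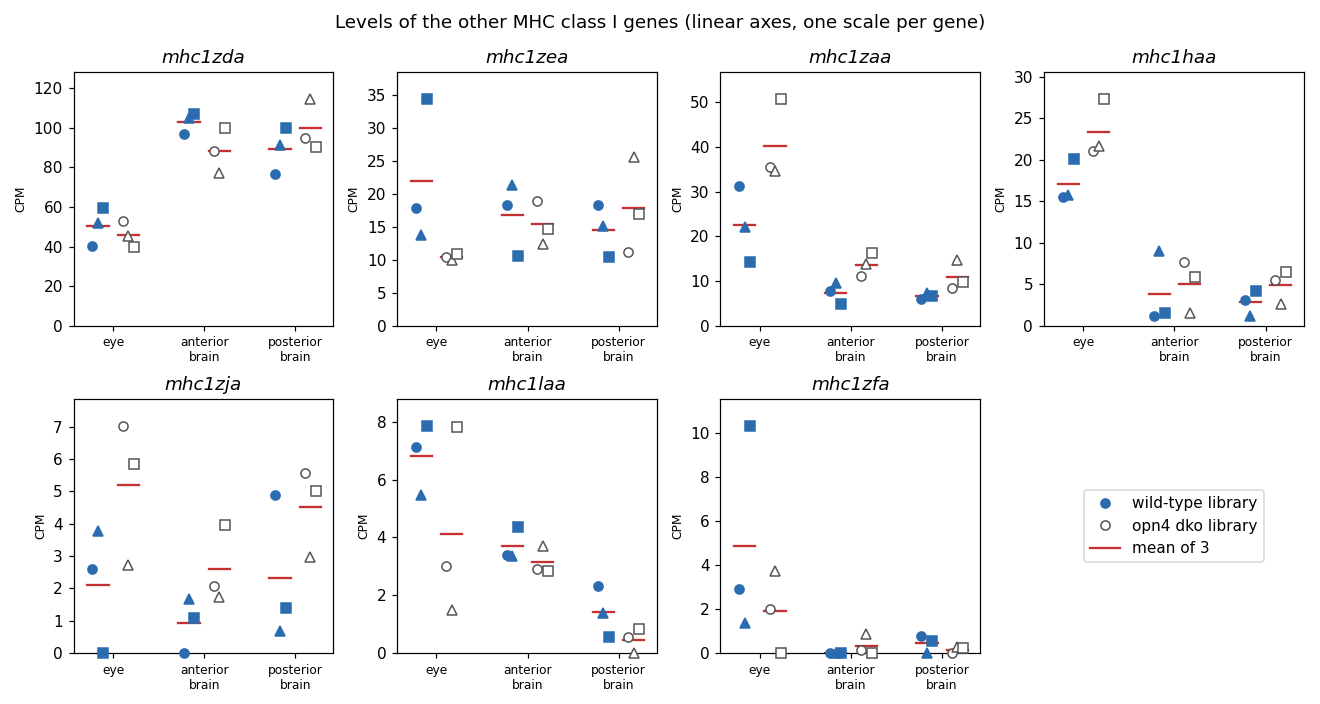
CPM of the 7 class I genes outside the U lineage in each library, by tissue, with filled blue markers for wild-type, open grey markers for opn4 dko, a marker shape for each replicate number and a red line for the mean of 3. Axes are linear from 0 and each gene has its own scale, so that heights are not compared between genes. The genotypes of mhc1zda lie close together, at 88.4 against 103 CPM in the anterior brain, and mhc1zaa and mhc1haa stand highest in the eye.

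**Figure D4:**
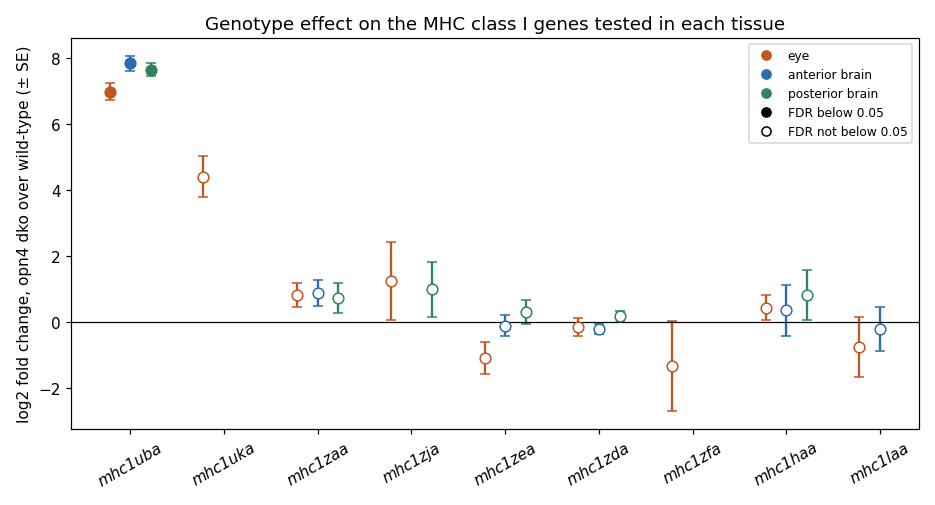
log2 fold change of opn4 dko over wild-type (± SE, 3 against 3 libraries) for each class I gene that was tested in a tissue, with a colour for each tissue. Filled markers passed an FDR of 0.05, which are the 3 of mhc1uba at 6.97, 7.83 and 7.64, and open markers did not. Members with too few reads in a tissue have no marker.

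Of the 11 other rows with a class I symbol, 3 were at 0 in every library and 1 had enough reads to be tested, in the eye. This was mhc1uma (ENSDARG00000039164), named after its values were seen and also a U gene by its symbol, with 13, 5 and 13 reads in wild-type eyes against 24, 30 and 41 for opn4 dko (log2 fold change 0.92, SE 0.87, FDR 0.993). Their summed level was 5.47 to 14.6 CPM in wild-type eyes and 6.81 to 14.4 CPM in opn4 dko eyes. Brain libraries had at most 4.88 CPM.

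Whether the genotype effect differed between tissues was tested as an interaction, with the 18 libraries fitted together. For mhc1uba the log2 effect was lower in the eye than in the anterior brain by 0.84 (value −0.84, SE 0.34, unadjusted p 0.0207, FDR 0.743). It differed by −0.64 (SE 0.33, FDR 0.873) between eye and posterior brain and by 0.20 (SE 0.37, FDR 1) between anterior and posterior brain. The edgeR test called 0 of 9 members in any of the 3 pairs of tissues, and an unadjusted p below 0.05 was found for 1 (mhc1uba), 1 (mhc1zea) and 0 members. Over all genes, it called 0.344% for eye against anterior brain, 0% for eye against posterior brain and 0.00537% for anterior against posterior brain. In the same order, an unadjusted p below 0.05 was found for 1101, 1091 and 559 of 18630 genes.

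The class I genes also differed between tissues within a genotype. The eye stood above the brain for mhc1uba, mhc1uka, mhc1zaa and mhc1haa and below it for mhc1zda, in both genotypes. mhc1uba was higher in the eye than in the anterior brain, with a log2 difference of 2.36 (SE 0.29) in wild-type and 1.51 (SE 0.17) in opn4 dko. Against the posterior brain the difference was 1.79 (SE 0.28) and 1.15 (SE 0.17). Each of these passed the test, with the highest FDR at 2.04e-05. The levels of mhc1uba in the anterior and the posterior brain did not differ beyond their spread (FDR 0.333 in wild-type and 0.148 in opn4 dko).

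mhc1zaa and mhc1haa followed the same order, with the eye above both brain parts. mhc1zaa had 22.6 ± 8.58 CPM in the wild-type eye against 7.44 ± 2.44 and 6.64 ± 0.684 CPM in the anterior and posterior brain. The log2 differences were 1.60 (SE 0.39, FDR 0.00197) and 1.77 (SE 0.40, FDR 0.00102). In opn4 dko they were 1.56 (SE 0.38) and 1.88 (SE 0.39). mhc1haa had 17.1 ± 2.59 CPM in the wild-type eye against 3.89 ± 4.44 and 2.84 ± 1.52 CPM in the brain parts, with log2 differences of 2.09 (SE 0.69, FDR 0.0178) and 2.61 (SE 0.72, FDR 0.00566). In opn4 dko they were 2.19 (SE 0.68, FDR 0.0127) and 2.23 (SE 0.69, FDR 0.0124). The call of mhc1haa for eye against anterior brain in wild-type was lost without the first or the third wild-type anterior brain library (FDR 0.0795 and 0.081). In opn4 dko that call was lost without the second anterior brain library (FDR 0.0681). The call for eye against posterior brain in opn4 dko was lost without the second posterior brain library (FDR 0.0587).

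mhc1zda had the opposite order. Its eye levels of 50.6 ± 9.52 CPM in wild-type and 46.1 ± 6.51 CPM in opn4 dko were below those of both brain parts. In wild-type the log2 difference of eye over anterior brain was −1.03 (SE 0.20, FDR 0.000159) and that of eye over posterior brain −0.82 (SE 0.20, FDR 0.00167). In opn4 dko they were −0.94 (SE 0.19) and −1.11 (SE 0.19). It was the only member that the test called lower in the eye in either genotype.

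mhc1uka was called higher in the eye than in both brain parts in each genotype. In opn4 dko the log2 difference was 4.26 (SE 0.74, FDR 8.03e-05) to the anterior and 3.69 (SE 0.72, FDR 0.000304) to the posterior brain. In wild-type it rests on 2, 10 and 2 eye reads, and the call against the posterior brain (FDR 0.0326) was lost without the second wild-type eye library (FDR 0.278) and without the second or the third posterior brain library (FDR 0.133 and 0.0649). mhc1laa was called higher in the eye than in the posterior brain in opn4 dko (log2 difference 3.03, SE 0.99, FDR 0.0185), a call that ended without the third eye library (log2 difference 2.18) or without the first or second posterior brain library (FDR 0.0505 and 0.0649). mhc1zfa was called higher in the wild-type eye than in the anterior brain, where it had no reads. mhc1uka and mhc1zfa were kept in the fit of all 18 libraries only with their eye libraries, so that their tissue calls were in part set by the filter. mhc1zea and mhc1zja showed no called tissue difference. For mhc1zea the log2 difference of eye over anterior brain was 0.38 (SE 0.42) in wild-type and −0.56 (SE 0.42) in opn4 dko, and over posterior brain 0.58 (SE 0.42) and −0.77 (SE 0.42).

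In total, 6 of 9 members were called between eye and anterior brain and 5 of 9 between eye and posterior brain in wild-type, against 43.2% and 41.7% of all genes tested. In opn4 dko the numbers were 5 and 6 of 9, against 40% and 38.8% of all genes. These numbers include mhc1uka each time and mhc1zfa in wild-type for eye against anterior brain, both kept only with their eye libraries. No member was called between the anterior and posterior brain by edgeR in either genotype, where 15.8% of all genes were called in wild-type and 17% in opn4 dko, and 0 members in wild-type and 2 in opn4 dko (mhc1uba and mhc1laa) had an unadjusted p below 0.05. Over all genes, such a p was found for 5050 of 18630 in wild-type and 5227 in opn4 dko.

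The genes that supply class I molecules with light chain and peptide were read next. Of a list of 35 such genes written by function, 28 were matched in the table and 4 of those, among them the tapasin gene tapbp.1, were at 0 in all libraries. In eye, anterior and posterior brain the test called 0 of 24, 0 of 23 and 1 of 22, and 2, 2 and 6 had an unadjusted p below 0.05. Over all genes tested it called 0.0254%, 1.05% and 0.357% in the same order. An unadjusted p below 0.05 was found for 675 of 15773, 1386 of 15341 and 1502 of 15417 genes. The edgeR exact test called 1, 0 and 3 genes and DESeq2 also 1, 0 and 3, namely psmb8a in the eye and psmb8a, b2m and tap2a in the posterior brain. Of all genes in the eye, the exact test called 0.108% and DESeq2 0.171%. In the posterior brain the exact test called 74 genes higher and 85 lower of 15417, and DESeq2 68 and 76 of 15415. In each tissue 16 of the genes had a positive log2 fold change. The medians were 0.19, 0.15 and 0.18, beside 0.03, 0.00 and 0.01 over all genes tested. With libraries scaled to actb1 reads, which moves the median of all genes by −0.34 in the eye and −0.35 in the posterior brain, the medians of the list were −0.15, 0.09 and −0.15, and 9 of 24, 12 of 23 and 8 of 22 genes were positive. The partners outside the neighbourhood of the U genes had 11 of 19, 11 of 18 and 12 of 18 positive, with medians of 0.08, 0.01 and 0.09.

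psmb8a (ENSDARG00000001303), a catalytic subunit of the immunoproteasome that cuts peptides for class I, was the only partner that the test called. Posterior brains had 22, 12 and 5 wild-type reads against 178, 65 and 128 for opn4 dko. These are 3.04 ± 2.28 against 25.4 ± 7.35 CPM, a log2 fold change of 3.07 (SE 0.47, FDR 0.00304). The call was lost without the second wild-type library (FDR 0.0571) and in the fit of all 18 libraries (FDR 0.0755). Eyes had 16, 19 and 19 wild-type reads of psmb8a against 225, 238 and 168 for opn4 dko, with a log2 fold change of 2.83 (SE 0.39) and an FDR of 0.0508. Without the third wild-type eye library the FDR was 0.00562. The anterior brain had 14, 0 and 15 against 64, 29 and 43 reads (log2 fold change 1.98, SE 0.79, FDR 0.406). In none of the 3 tissues did the groups of psmb8a overlap. Such groups were found for 12.5% (eye), 14.5% (anterior brain) and 15.7% (posterior brain) of the genes tested, in either direction. In both brain parts psmb8a was kept for the test only with its opn4 dko libraries.

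The light chain gene b2m (ENSDARG00000053136) had 746 ± 123 CPM in wild-type eyes and 871 ± 145 CPM in opn4 dko eyes. Anterior brains had 199 ± 19.4 against 262 ± 61.9 CPM, posterior brains 353 ± 82.4 against 546 ± 30.5 CPM. The log2 fold changes were 0.20 (SE 0.19, FDR 0.993), 0.39 (SE 0.15, FDR 0.357) and 0.63 (SE 0.14, FDR 0.0672). The posterior brain groups of b2m did not overlap, at 305 to 449 against 514 to 575 CPM, as for 15.7% of the genes tested there in either direction. DESeq2 and the edgeR exact test put the b2m difference past the threshold (FDR 0.00589 and 0.0334), as did leaving out the first wild-type library (FDR 0.00439). The difference did not pass without the second or the third wild-type library (FDR 0.404 and 0.299). It also did not pass without any one of the opn4 dko libraries (FDR 0.0841 to 0.278). With the lane as a term and with a replicate block it passed (FDR 0.0229 and 0.0405). The difference of b2m did not pass in the fit of all 18 libraries (FDR 0.347) or with actb1 scaling (log2 fold change 0.32, FDR 0.379).

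The subunits of the peptide transporter were not called in any tissue by the quasi-likelihood test. tap2a (ENSDARG00000036787) had 9.48 ± 4 CPM against 27.5 ± 10.3 CPM between wild-type and opn4 dko posterior brains, a log2 fold change of 1.52 (SE 0.37, FDR 0.0994). DESeq2 called it there with an FDR of 0.0268, whereas the FDR was 0.223 in the fit of all 18 libraries and 0.127 with actb1 scaling. In the eye and the anterior brain the log2 fold changes of tap2a were 0.23 (SE 0.41) and 0.45 (SE 0.26). tap1 (ENSDARG00000079766) had log2 fold changes of −0.24 (SE 0.60), 0.01 (SE 0.42) and 1.09 (SE 0.54) in eye, anterior and posterior brain, none past the test. Compared with mhc1uba, whose level differed 128-fold or more between genotypes, the means of b2m differed by less than 2-fold in each tissue.

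Genes beside the U genes were compared next, a list made after the values of the members had been seen. In the RefSeq annotation of the assembly GRCz12tu, which is not the build of the counts, mhc1uka and mhc1uba lie with 1 gene, tapbp.2, between them. Taking 10 protein-coding genes on each side and the one between gave 21 genes, of which 19 were matched in the table. The list shares psmb8a, psmb9a, psmb12, psmb13a, tap2a and both tapasin genes with the partners above, as genes of peptide processing lie there.

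In the anterior brain all 16 neighbours tested had a positive log2 fold change, with a median of 0.95. The eye had 11 of 13 positive (median 0.64), the posterior brain 13 of 14 (median 0.71). Over all genes tested in anterior brain, eye and posterior brain, 49.5%, 53% and 50.6% were positive. With actb1 scaling 14 of 16, 9 of 13 and 9 of 14 were positive. Without the genes shared with the partner list, 11 of 11, 6 of 8 and 9 of 10 were positive. The 3 fits were made on different tissues, which may come from the same fish, so that the tissues are not independent.

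The test called 2 of 16 neighbours in the anterior brain, 0 of 13 in the eye and 1 of 14 in the posterior brain. Over all genes tested it called 1.05%, 0.0254% and 0.357% in the same order. With actb1 scaling the neighbours called were 0, 1 and 1. Under that scaling the test called 90 genes higher and 35 lower of 15341 in the anterior brain. In the eye these numbers were 5 and 12 of 15773, in the posterior brain 17 and 143 of 15417. flot1a (ENSDARG00000001710), a flotillin of membrane microdomains, had 377, 475 and 384 reads against 1022, 725 and 656 reads in anterior brains of wild-type and opn4 dko. That is 80.5 ± 6.9 against 148 ± 8.89 CPM, with a log2 fold change of 0.88 (SE 0.14, FDR 0.00135), and the FDR was 0.0844 in the fit of all 18 libraries and 0.335 with actb1 scaling. daxx (ENSDARG00000000729), in mammals a chaperone of a histone variant, had 31, 83 and 34 against 203, 85 and 118 reads in the anterior brain. Its log2 fold change was 1.40 (SE 0.32, FDR 0.0356), and the call of daxx ended without any of 4 libraries (FDR 0.108 to 0.224 when the first or the third library of either genotype was left out), in the fit of all 18 libraries (FDR 0.609) and with actb1 scaling. psmb8a in the posterior brain was the other.

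Other neighbours lay near 0 in some or all tissues, among them brd2a (−0.01 to 0.16) and sdha (0.12 to 0.33), the latter a subunit of succinate dehydrogenase. Between tapbp.1 and psmb13a, both without reads, tapbp.2 had log2 fold changes of 0.49 (SE 0.59), 1.03 (SE 0.60) and 1.03 (SE 0.54) in eye, anterior and posterior brain, none past the test. The differences of mhc1uba and mhc1uka thus stood beside smaller positive values in most neighbours that could be tested. Some of these neighbours could be tested only with their opn4 dko libraries.

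**Figure D5:**
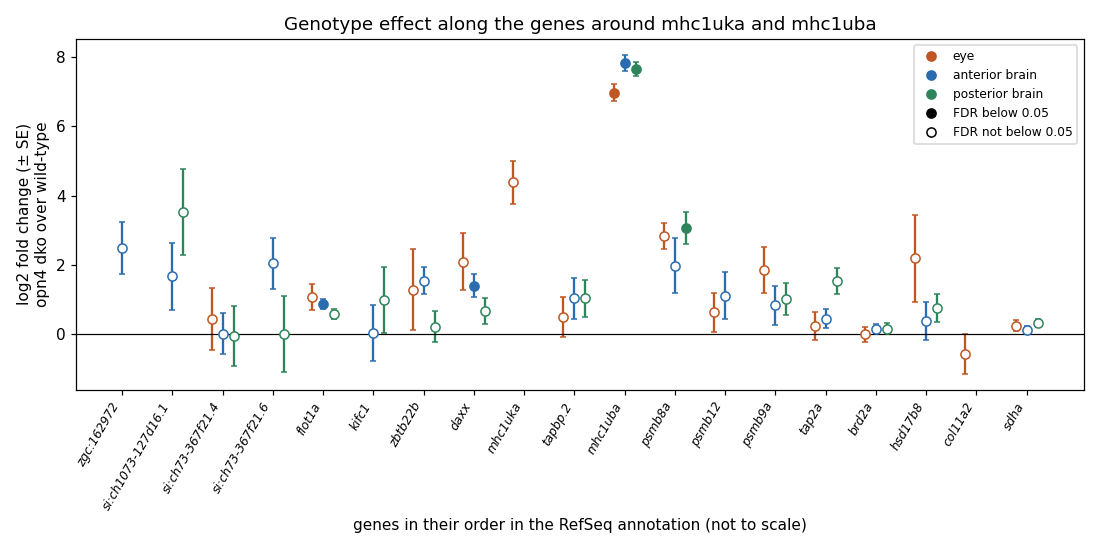
log2 fold change of opn4 dko over wild-type (± SE) for mhc1uka, mhc1uba and the neighbouring genes that could be tested, in their order in the RefSeq annotation and not to scale, with a colour for each tissue. Filled markers passed an FDR of 0.05. mhc1uba stands at 6.97 to 7.83, psmb8a at 1.98 to 3.07, si:ch1073-127d16.1 reaches 3.53 in the posterior brain, and 1 or more neighbours on both sides lie near 0, such as brd2a at −0.01 to 0.16. si:ch1073-127d16.1 was kept there only with its opn4 dko libraries, as were mhc1uba and psmb8a in both brain parts and mhc1uka in the eye.

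Leukocytes carry much class I, and their markers were compared for that reason. Of 5 leukocyte markers matched (ptprc, coro1a, cd74a, cd74b and lcp1), 2 were called in the posterior brain and 0 in eye or anterior brain. Over all genes tested, 0.357% were called for the posterior brain, 0.0254% for the eye and 1.05% for the anterior brain. ptprc, the CD45 phosphatase of leukocytes, had 104, 96 and 50 reads against 327, 233 and 301 reads between wild-type and opn4 dko posterior brains (log2 fold change 1.68, SE 0.25, FDR 0.00215, and FDR 0.0863 in the fit of all 18 libraries). cd74b, the invariant chain of MHC class II, had 232 ± 46.4 against 412 ± 103 CPM there (log2 fold change 0.83, SE 0.17, FDR 0.0376), and its call was lost with a left-out library in 4 cases (FDR 0.145 to 0.316), in the fit of all 18 libraries (FDR 0.407) and with actb1 scaling (FDR 0.205). In the anterior brain ptprc had 17.6 ± 4.52 against 35.5 ± 5.6 CPM (log2 fold change 1.01, FDR 0.0724).

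The summed level of the 5 leukocyte markers was 944 to 1770.0 CPM in wild-type and 1050.0 to 1370.0 CPM in opn4 dko eyes. Anterior brains had 437 to 512 against 354 to 585 CPM and posterior brains 1060.0 to 1580.0 against 1280.0 to 2080.0 CPM, so that the sums overlapped in each tissue and no library was at 0. cd74a gave most of the sum, with 919 ± 226 against 1140.0 ± 288 CPM in posterior brains. There all 5 log2 fold changes were positive (median 0.83), and ptprc, cd74b and lcp1 did not overlap between genotypes, lcp1 at 21.9 to 37.5 against 44.9 to 72.6 CPM. Of all genes tested in the posterior brain, 50.6% were positive and 15.7% had groups that did not overlap, in either direction. No marker of T cells, red blood cells or endothelium was called in any tissue. Of the pineal markers, asmt, the last enzyme of melatonin synthesis, was called in the anterior brain, at 1.02 ± 0.321 CPM against 56.8 ± 20.3 CPM (log2 fold change 5.76, SE 0.39, FDR 1.64e-08). aanat2, the enzyme before it, had 2.75 to 4.96 against 7.24 to 23.9 CPM there (log2 fold change 1.86, FDR 0.099). The posterior brain had 2, 1 and 0 reads of asmt in wild-type against 7, 135 and 42, and in the eye the level of asmt was 74.2 ± 6.52 against 78.7 ± 5.04 CPM. The part of leukocytes or of pineal tissue in the class I values was not tested.

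Over the 18 libraries, the genes with a symbol whose log2(CPM + 1) was most like that of mhc1uba, of 18774 genes, were nfybb (Pearson r 0.898), a subunit of the transcription factor NF-Y, si:ch211-76m11.11 (0.885), psmb8a (named PSMB8 in the symbol table, 0.847), si:ch211-127b6.2 (0.838) and ccdc171 (0.837). nfybb had 10.4 to 23 CPM over all wild-type libraries and 27.7 to 48.4 CPM over all opn4 dko libraries. si:ch211-76m11.11 had at most 1.29 CPM in a wild-type library against 2.18 to 12.2 CPM in opn4 dko. It had enough counts to be ranked only through opn4 dko libraries, and ccdc171 also needed them. Their r with mhc1uba was thus in part set by the ranking rule. mhc1uka itself had an r of 0.769 with mhc1uba. Most like mhc1uka were scpp8 (0.913), HSPA8 (0.892), adprhl1 (0.888), zgc:123295 (0.884) and EIF3H (0.881). scpp8 had reads in the 3 opn4 dko eye libraries, at 3.23 to 4.46 CPM, 0 in every wild-type library and at most 0.537 CPM in a brain library of opn4 dko. adprhl1 and zgc:123295 had 2.6 to 3.98 and 2.6 to 4.97 CPM in opn4 dko eyes, and at most 0.834 and 1.37 CPM elsewhere. These low genes had enough counts to be ranked only in opn4 dko eyes, where mhc1uka was highest. Their high r was thus in part set by that rule. HSPA8, a heat shock protein present in all cells, was highest in opn4 dko eyes at 1910.0 to 2300.0 CPM, above the wild-type eyes at 1070.0 to 1420.0 CPM. These values describe libraries that share tissue and genotype.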

How the data were processed

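The authors deposited raw read counts for 31624 genes in 18 libraries. Their deposited commands mapped single reads of 100 bp with HISAT to GRCz10 and ran featureCounts on Ensembl release 86 (gene bodies with introns, reverse strand, mapping quality 20 or more), and the labels name edgeR 3.9. The study's methods name another mapper, NextGenMap. Whether the library kit marks strand is not given in the sources used here, so that reads of overlapping and antisense genes may be mixed, and reads of near-identical class I copies may be split or lost.

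Counts were analysed with edgeR 4.0.16 in R 4.3.3: TMM, filterByExpr (minimum count 10, total 15), prior count 0.125, quasi-likelihood F-test per tissue (3 against 3) and Benjamini-Hochberg FDR below 0.05 over all genes. Interactions, tissue differences and CPM came from a fit of all 18 libraries. SE was the absolute log2 fold change divided by the square root of F. p-values measure the spread between pools of 3 fish. Between genes levels were not compared, as gene lengths of the build were not used.

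Symbols came from a table that names 26154 identifiers, with 32 named from the study's source table. Named were all members, b2m, tap1, tap2a, psmb8a and every partner called, and the 5 genes most like each U gene (log2(CPM + 1), at least 10 counts in at least 3 libraries). Neighbours, and the genes named among them and among the markers, were chosen after values were seen. The members and lists were chosen with earlier results of these data known. Alternatives were the exact test, DESeq2 1.42.0, RLE, actb1 library sizes, no filter, all 18 libraries, prior count 2, a replicate block and each library left out, and after seeing the data the deposited edgeR code (above 1 CPM in at least 2 libraries, exact test) and the lane as a term. The procedure was tested on simulated data. The authors' source tables of fold changes and p-values were not used.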

Additional observations from a re-analysis of the deposited data

How the results depend on the processing

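The call of mhc1uba held in each tissue under every alternative run, with log2 fold changes of 6.58 to 7.06 in the eye, 7.58 to 8.14 in the anterior brain and 7.30 to 7.80 in the posterior brain. In the eye 2 members, mhc1uba and mhc1uka, were called with the fit of all 18 libraries, the exact test, DESeq2, actb1 library sizes, no filter and the deposited edgeR code, and 1 to 2 with a library left out. In the anterior brain the number was 2 with the fit of all 18 libraries and with the deposited code, which called 0.623% and 1.57% of all genes. mhc1uka passed both of these filters through opn4 dko libraries, and in the eye it passed every filter used only with them. Partners called in the eye were 1 with the exact test, DESeq2, actb1 sizes, no filter and the deposited code, and 0 to 1 with a library left out. Over all genes in the eye, actb1 sizes called 5 higher and 12 lower of 15773. No filter called 7 and 9 of 22140, the deposited code 6 and 10 of 19027. In the posterior brain the partners called were 0 in the fit of all 18 libraries, 3 with the exact test, DESeq2, no filter and the deposited code, 2 with the lane as a term, and 0 to 2 with a library left out (0 without the second wild-type library). Over all genes there, the test per tissue called 27 higher and 28 lower of 15417, the fit of all 18 libraries 10 and 8 of 18630. No filter called 116 and 110 of 21627, the deposited code 64 and 75 of 18349. With the lane as a term the numbers were 35 and 36 of 15417. Uncalled values changed sign for mhc1zda in the posterior brain with actb1 sizes (−0.19), and with a library left out for mhc1haa (−0.10 to 1.91) and mhc1zea (−0.37 to 0.10) in the anterior brain, for mhc1zea in the posterior brain (−0.0668 to 0.55) and for the interaction of mhc1uba between the brain parts (−0.0186 to 0.50). Per 1000 actb1 reads the ratio of means was 94.4 for mhc1uba and 0.68 for mhc1zda in the eye, and 0.884 for mhc1zda in the posterior brain.

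Within a tissue, wild-type and opn4 dko libraries of the same replicate number had correlations of −0.032 to 0.04. Libraries of different numbers had −0.08 to 0.042. With 3 libraries in a group, these values cannot exclude a pairing by replicate number. Whether tissues of the same genotype and number came from the same fish was not checked. The tests between tissues treated all 18 libraries as independent. With the replicate number as a block, 2 partners were called in the posterior brain, where 29 genes were called higher and 31 lower of 15417. The members called stayed at 1 in each tissue, and mhc1uka in the eye had an FDR of 0.29.

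Counts limit what can be said of mhc1uka and mhc1zfa in the brain, and of mhc1zja and mhc1laa: 3 counts correspond to 0.417 to 1.47 CPM, with the highest value in the third wild-type eye library. Genes near 0 are known only as bounds. The pools carry 3 fish each and their relation to one another is not given in the sources used here.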
